A study of Mus musculus with 9 samples.

Results

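Carnitine carries long-chain fatty acids to the site of their oxidation, and 9 genes that make, import or esterify it were followed here in mouse embryoid bodies (EBs). The genes were listed by name for their roles: Cpt1a, Cpt1b, Cpt1c, Cpt2, Slc25a20, Crat, Crot, Slc22a5 and Aldh9a1. All 9 were found by symbol among the 55471 Ensembl genes of the count table. EBs are aggregates of embryonic stem (ES) cells that begin to form the germ layers once leukemia inhibitory factor is withdrawn. The ES cells were of the mouse line E14. Every EB was formed in hanging drops for 3 days, plated on gelatin and harvested after 3 further days of differentiation in medium without leukemia inhibitory factor. The 3 groups were WT EBs, Tnfaip2-/- EBs, and Tnfaip2-/- EBs given palmitoyl-L-carnitine (PC) together with palmitic acid (PA), each at 8 μM (PA/PC-treated Tnfaip2-/- EBs). By the study's methods, PA/PC was present both while the EBs formed and while they differentiated, and the treated EBs were formed in the differentiation medium. The study's general protocol formed EBs in ES cell medium. A figure legend of the study names a vehicle control for the Tnfaip2-/- EBs without PA/PC, called untreated here. The medium in which these controls formed is not stated separately. An effect of PA/PC and one of the medium during EB formation therefore cannot be told apart. Tnfaip2, a relative of the exocyst subunit Exoc3, had been disrupted by CRISPR-Cas9 with an early stop codon, and the Tnfaip2-/- EBs all come from 1 ES cell clone that was compared with the parental line. Each group held 3 libraries, which the study describes as biological replicates. It mentions independent pools of EBs only for the Tnfaip2-/- EBs with PA/PC or vehicle. PA and PC were given together and WT EBs with PA/PC were not analysed here, so the parts of PA and PC in the treated group, and an effect of genotype under treatment, cannot be told apart.

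Long-chain fatty acids are activated to acyl-CoA in the cytosol, and acyl-CoA does not cross the inner mitochondrial membrane. CPT1, on the outer membrane, moves the acyl group onto carnitine, the carrier SLC25A20 exchanges acylcarnitine for free carnitine across the inner membrane, and CPT2 hands the acyl group back to CoA in the matrix, where beta-oxidation begins. CPT1 is the controlled step of the shuttle and is inhibited by malonyl-CoA, an intermediate of fatty acid synthesis. PC, the palmitoyl ester of carnitine, is the product of CPT1 and the cargo of SLC25A20. Any difference in RNA level below can come from less RNA per cell or from fewer cells of a type that expresses the gene, and in these bulk libraries these cannot be told apart.

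The deposited read counts came to between 27362913 and 28914312 per library. Levels are given in CPM, a read count relative to the library's total, scaled by the trimmed mean of M values (TMM), and differences as log2 fold changes with standard errors (SE) from edgeR's quasi-likelihood test. A gene was called where its Benjamini-Hochberg adjusted p over all genes tested was under 0.05. The biological coefficient of variation was 2.09% to 2.65% in the 3 fits, so small differences passed the test, and its p-values measure the spread between these libraries only. Tnfaip2 itself had 16, 6 and 10 counts in WT EBs, 5, 6 and 8 in Tnfaip2-/- EBs and 25, 14 and 16 with PA/PC. These are too few to check the genotype, and counts per gene do not show a stop codon. Tnfaip2 was called higher with PA/PC than without (1.72 ± 0.36, edgeR adjusted p = 5.49e-05). It was also called higher than in WT EBs (0.95 ± 0.34, edgeR adjusted p = 0.0164), a call lost in DESeq2 (adjusted p = 0.106). Summed markers of pluripotent cells (5 genes, none at 0 in any group) ran from 2044 to 2067 CPM in WT EBs, from 3071 to 3094 CPM in Tnfaip2-/- EBs and from 2075 to 2109 CPM with PA/PC, which shows RNA of undifferentiated cells in all 3 groups. Of the other lists, 5 neural markers ran in the same order of groups from 192 to 199, 123 to 130 and 316 to 320 CPM, 5 mesoderm markers from 36.2 to 39.2, 29.0 to 29.6 and 51.6 to 54.4 CPM, and 6 endoderm markers from 83.4 to 88.2, 61.8 to 66.3 and 9.45 to 10.6 CPM. The 5 fibroblast markers ran from 41.6 to 43.1, 28.7 to 29.0 and 14.3 to 15.9 CPM and the 6 muscle and heart markers from 2.67 to 3.36, 7.26 to 9.01 and 4.08 to 5.58 CPM, again with none at 0 in any group. The summed levels of all 6 lists differed between the groups, but the genes within a list did not all move alike. In Tnfaip2-/- against WT EBs, 3 of the 6 endoderm markers were called higher and 3 lower, and of 4 mesoderm markers tested 1 was higher (Kdr) and 2 were lower. Of the 5 neural markers, 2 were called higher and 3 lower in Tnfaip2-/- than in WT EBs. With PA/PC all 6 endoderm markers were lower than without. The pluripotent sum of treated knockout EBs lay near that of WT EBs while its genes moved apart. Against WT EBs, 2 of the 5 were called higher (Pou5f1 and Sox2) and 3 lower (Nanog, Zfp42 and Esrrb). The fibroblast sum followed Pdgfra, at 34.0, 12.8 and 2.53 CPM in the same order of groups, while the other 4 of the 5 markers were called higher in treated knockout than in WT EBs. The part of these markers in the results below was not tested.

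The promoters of 4 genes are shown first because their RNAs carry the pattern described below: Cpt1a, Cpt1c and Cpt2 were lower together in Tnfaip2-/- EBs, whereas Cpt2 and Slc25a20 moved in opposite directions under PA/PC. Each sequence is the 300 bases spanning the transcription start given by RefSeq for build GRCm38.p6, mostly upstream of it, read 5' to 3' on the gene's strand. They lie at chr19:3323051-3323350 on the plus strand (Cpt1a), chr7:44974802-44975101 on the minus strand (Cpt1c), chr4:107923540-107923839 on the minus strand (Cpt2) and chr9:108661886-108662185 on the plus strand (Slc25a20). Capitals mark matches, on either strand, to the hexamer AGGTCA of nuclear receptors, the GC box GGGCGG and the CCAAT box.
Cpt1a: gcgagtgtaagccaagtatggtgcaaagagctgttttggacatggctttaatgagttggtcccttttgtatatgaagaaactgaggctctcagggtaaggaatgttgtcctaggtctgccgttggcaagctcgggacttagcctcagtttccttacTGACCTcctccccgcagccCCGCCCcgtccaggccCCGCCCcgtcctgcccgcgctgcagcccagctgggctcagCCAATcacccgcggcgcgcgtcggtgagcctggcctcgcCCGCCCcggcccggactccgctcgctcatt
Cpt1c: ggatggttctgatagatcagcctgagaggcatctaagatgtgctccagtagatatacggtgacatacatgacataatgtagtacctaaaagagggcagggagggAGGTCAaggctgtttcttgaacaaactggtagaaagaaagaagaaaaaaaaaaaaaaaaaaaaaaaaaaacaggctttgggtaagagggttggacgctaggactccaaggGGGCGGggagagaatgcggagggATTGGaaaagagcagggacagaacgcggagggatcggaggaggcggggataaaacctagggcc
Cpt2: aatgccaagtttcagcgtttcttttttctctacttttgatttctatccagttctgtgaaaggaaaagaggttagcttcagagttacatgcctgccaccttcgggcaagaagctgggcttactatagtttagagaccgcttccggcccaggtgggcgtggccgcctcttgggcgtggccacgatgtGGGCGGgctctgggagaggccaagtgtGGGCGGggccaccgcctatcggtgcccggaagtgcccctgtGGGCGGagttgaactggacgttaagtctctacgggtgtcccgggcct
Slc25a20: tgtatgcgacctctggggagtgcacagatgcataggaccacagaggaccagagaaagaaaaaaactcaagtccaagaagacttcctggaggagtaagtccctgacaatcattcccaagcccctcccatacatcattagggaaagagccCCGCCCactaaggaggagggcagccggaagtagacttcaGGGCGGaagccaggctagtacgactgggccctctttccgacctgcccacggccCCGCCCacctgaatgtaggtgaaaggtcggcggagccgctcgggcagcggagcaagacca

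RefSeq promoters were matched for 7 of the 9 genes, all but Cpt1b and Crat. The hexamer AGGTCA lay in the Cpt1a promoter from position -94 to -89 relative to the start and in the Cpt1c promoter from -146 to -141, and in no other member's window. It was present in 16.3% of 32851 mouse promoters of this length. The DR1 element, which PPAR receptors bind together with RXR and which repeats the hexamer with 1 base between the copies, was in none of the 7 windows and in 0.0396% of all promoters. The 9-base motif TCAAGGTCA, which also contains it and is bound by estrogen-related receptors, was likewise in none of the 7, against 0.423% of all promoters. The GC box was found in 6 of the 7 windows, all but that of Aldh9a1, against 35.7% of all promoters, and the CCAAT box in 4 (Cpt1a, Cpt1c, Crot and Aldh9a1), against 37.4%. TATAAA was in none of the 7 and in 13.6% of all promoters. Both strands were searched for each motif, and a match describes letters only, not a site in use.

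The first comparison set the carnitine genes of Tnfaip2-/- EBs against those of WT EBs. RNA of Cpt1a, Cpt1c and Cpt2 was 1.62 to 1.64 times lower in Tnfaip2-/- EBs than in WT EBs, while the carrier Slc25a20 between these steps was 1.19 times higher. Of the 9 genes, 3 were called higher (Slc25a20, Crot and Slc22a5) and 6 lower (Cpt1a, Cpt1b, Cpt1c, Cpt2, Crat and Aldh9a1). The number called, 9 of 9, stands beside a background of 73.8% of 17355 genes called (36.8% higher and 37.1% lower), so calls as such do not set these genes apart. Likewise, libraries of the 2 groups did not overlap for any of the 9, as for 75.3% of all genes. The median log2 fold change of the 9 was -0.55, against -0.01 over all genes tested. With a tested minimum fold of 1.5, 4 of the 9 were called (Cpt1a, Cpt1b, Cpt1c and Cpt2), against 21% of all genes, and at a tested minimum fold of 2 none of the 9 was called, against 9.14%.

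Cpt1a (ENSMUSG00000024900, chromosome 19, 3322334 to 3385733, GRCm38) encodes the broadly expressed CPT1 of liver and most other tissues. Its levels were 95.2, 98.0 and 94.8 CPM in WT EBs and 60.3, 58.7 and 56.5 CPM in Tnfaip2-/- EBs. Every knockout library lay well below every WT library. The log2 fold change was -0.72 ± 0.033 (SE, n = 3 per group, edgeR adjusted p = 1.21e-19), and 24.9% of all genes tested changed by at least as much. Cpt1c (ENSMUSG00000007783, chromosome 7, 44959372 to 44974851), a brain-enriched relative in the endoplasmic reticulum with little acyltransferase activity, fell in parallel. It had 90.3, 96.9 and 93.7 CPM in WT EBs and 56.7, 57.1 and 59.7 CPM in Tnfaip2-/- EBs, and the groups were again far apart (log2 fold change -0.70 ± 0.034, edgeR adjusted p = 5.86e-19). Of its exon bases, 6.53% lie opposite 6530437J22Rik, and the library kit does not mark strand.

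Cpt1b (ENSMUSG00000078937, chromosome 15, 89416405 to 89425863), the CPT1 of muscle, had few counts. It had 19, 18 and 17 counts in the WT libraries and 3, 7 and 8 counts in the knockout libraries. The WT libraries were all higher, and the difference was -1.59 ± 0.36 on the log2 scale (edgeR adjusted p = 1.95e-04; 95% interval -2.33 to -0.86). The value is uncertain, as 81.4% of its exon bases are shared with the readthrough gene Gm44502, which had no counts in any library. The authors did not count reads that overlap several genes, so reads in these bases are missing from the level of Cpt1b. Of the 6 muscle and heart markers, 3 had enough counts and all 3 were called higher in Tnfaip2-/- EBs, and their sum was mostly Myh6 (2.22 CPM in WT and 5.44 CPM in Tnfaip2-/- EBs). Their part in the level of Cpt1b was not tested.

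Cpt2 (ENSMUSG00000028607, chromosome 4, 107903981 to 107923610), the inner-membrane enzyme that regenerates acyl-CoA, had 39.3, 38.8 and 37.5 CPM in WT EBs and 23.7, 23.1 and 24.3 CPM in Tnfaip2-/- EBs. The knockout libraries were tightly grouped and all low, at -0.70 ± 0.045 against WT on the log2 scale (edgeR adjusted p = 9.94e-16). Slc25a20 (ENSMUSG00000032602, chromosome 9, 108662088 to 108684641), the only carrier of the shuttle among the 9 genes, moved the other way. Its levels were 94.7, 93.4 and 96.6 CPM in WT EBs and 117, 114 and 108 CPM in Tnfaip2-/- EBs, so all knockout libraries were higher. The increase was small, at 0.25 ± 0.031 on the log2 scale (edgeR adjusted p = 1.24e-08), and 62.5% of all genes tested changed by at least as much.

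**Figure D1:**
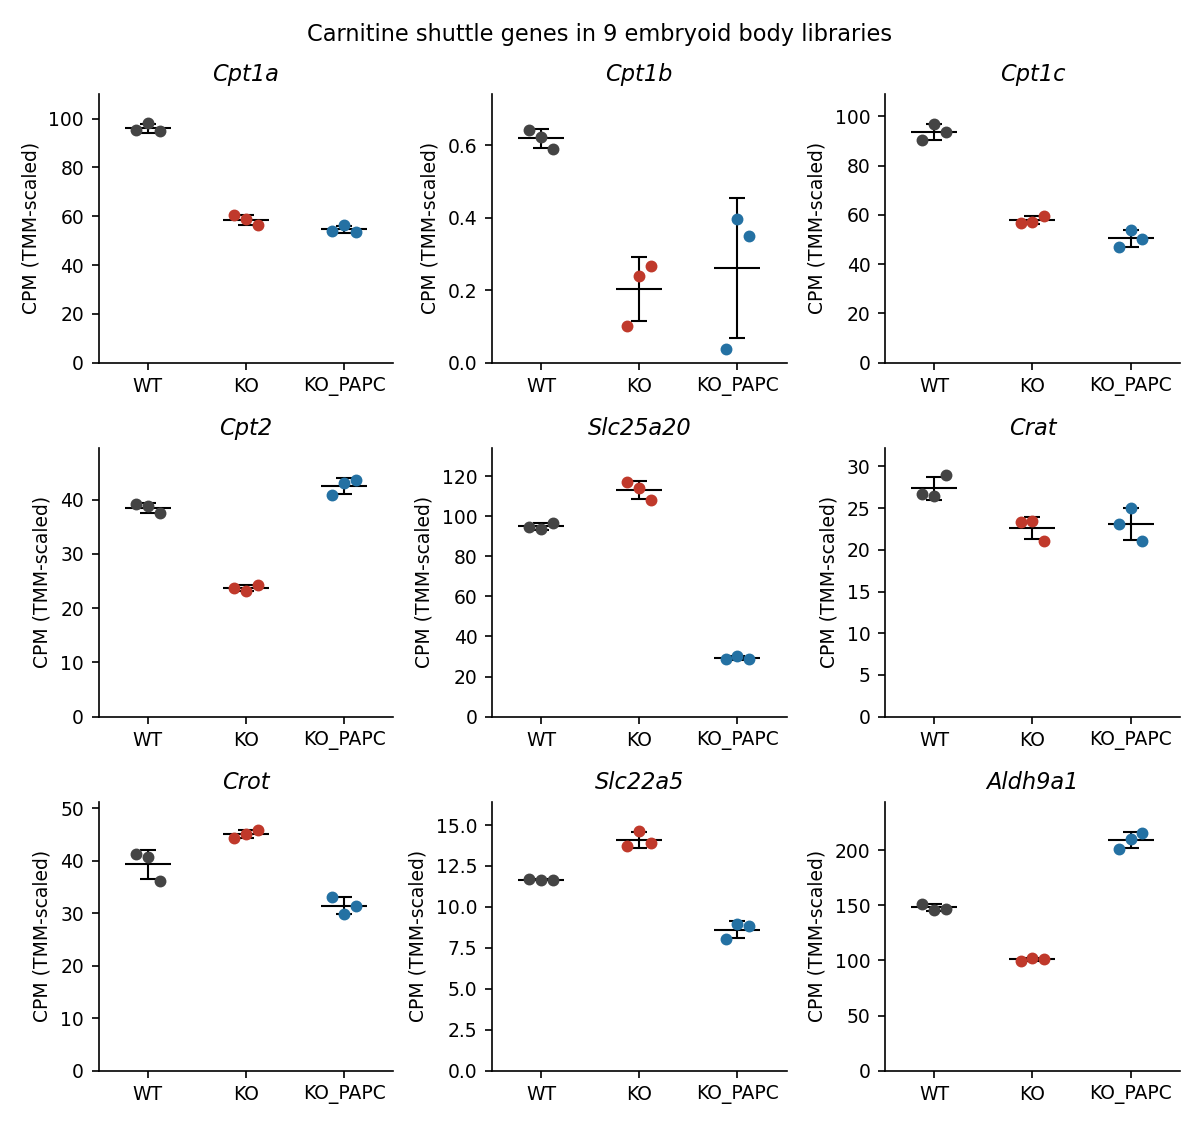
Level of each of the 9 carnitine genes in TMM-scaled CPM (vertical axes start at 0 and differ between panels) in 3 WT, 3 Tnfaip2-/- (KO) and 3 PA/PC-treated Tnfaip2-/- (KO_PAPC) EB libraries; points are libraries, long bars means and short bars SD. Cpt1a and Cpt1c were low in both knockout groups, Cpt2 and Aldh9a1 were low only in the untreated knockout, and Slc25a20 fell to between 28.6 and 30.5 CPM with PA/PC.

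Crat (ENSMUSG00000026853, chromosome 2, 30400471 to 30415813) encodes the acetyltransferase that moves short acyl groups between CoA and carnitine. It had 26.6, 26.5 and 28.9 CPM in WT EBs and 23.3, 23.4 and 21.0 CPM in Tnfaip2-/- EBs, and was lower in every knockout library by a small margin (-0.28 ± 0.053, edgeR adjusted p = 1.83e-05). Of its exon bases, 8.72% lie opposite Dolpp1 and Gm16323. Crot (ENSMUSG00000003623, chromosome 5, 8966033 to 8997324), the peroxisomal octanoyltransferase that prepares medium-chain acyl groups for export to mitochondria, had 41.2, 40.7 and 36.1 CPM in WT EBs and 44.3, 45.1 and 45.8 CPM in Tnfaip2-/- EBs. All knockout libraries were higher, by 0.20 ± 0.044 on the log2 scale (edgeR adjusted p = 1.80e-04).

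Slc22a5 (ENSMUSG00000018900, chromosome 11, 53864542 to 53891660) encodes OCTN2, the sodium-dependent carnitine importer of the plasma membrane. It had 11.7, 11.7 and 11.6 CPM in WT EBs and 13.7, 14.6 and 13.9 CPM in Tnfaip2-/- EBs, higher in every knockout library (0.27 ± 0.063, edgeR adjusted p = 3.18e-04). Of the 51-base words in its exons, 25.8% also occur in its paralogs Slc22a21 and Slc22a4. The authors did not count reads that map to several places, so such reads are missing from the level of Slc22a5. Aldh9a1 (ENSMUSG00000026687, chromosome 1, 167349991 to 167368532), the aldehyde dehydrogenase of carnitine synthesis, had the highest RNA level of the 9 per kilobase of exon. Its 151, 146 and 147 CPM in WT EBs stood against 99.3, 102 and 101 CPM in Tnfaip2-/- EBs, lower in all knockout libraries (-0.55 ± 0.028, edgeR adjusted p = 1.92e-18).

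The second comparison set PA/PC-treated against untreated Tnfaip2-/- EBs. RNA of the carrier Slc25a20 was 3.86 times lower with PA/PC, whereas Cpt2 was 1.79 times and Aldh9a1 2.06 times higher, and Cpt1a and Cpt1c stayed low. Of the 9 genes, 8 had enough counts to be tested in this comparison, all but Cpt1b. Of these 8, 2 were called higher (Cpt2 and Aldh9a1), 5 lower (Cpt1a, Cpt1c, Slc25a20, Crot and Slc22a5) and Crat was not called. The 7 calls stand beside a background of 81.8% of 17167 genes called (39.6% higher and 42.2% lower), and the 7 genes without overlap between the groups stand beside 82.2%. The median log2 fold change of the 8 was -0.15, against -0.02 over all genes tested. At a tested minimum fold of 1.5, 4 were called (Cpt2, Slc25a20, Slc22a5 and Aldh9a1), against 37.8% of all genes, and at a tested minimum fold of 2 only Slc25a20 was, against 20.7%.

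Slc25a20 showed the widest separation. Its 117, 114 and 108 CPM in untreated Tnfaip2-/- EBs compared with 28.9, 30.5 and 28.6 CPM in the treated ones. The log2 fold change was -1.95 ± 0.041 (n = 3 per group, edgeR adjusted p = 8.78e-32), and 11.4% of all genes tested changed by at least as much. Cpt2, the enzyme that follows it in the shuttle, rose from 23.7, 23.1 and 24.3 CPM to 40.9, 43.1 and 43.7 CPM. All treated libraries were higher, by 0.84 ± 0.047 on the log2 scale (edgeR adjusted p = 2.05e-18), and 33.8% of all genes changed by at least as much.

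The CPT1 genes did not share the rise of Cpt2. Cpt1a had 60.3, 58.7 and 56.5 CPM without and 53.8, 56.3 and 53.7 CPM with PA/PC, so the lowest untreated and the highest treated library nearly touched. The log2 fold change of -0.10 ± 0.039 was called (edgeR adjusted p = 0.0155), but the call was lost in DESeq2 (adjusted p = 0.100), without a count filter (0.0976) and without the first untreated (0.0822), the first treated (0.0524) or the third treated library (0.110). Cpt1c had 56.7, 57.1 and 59.7 CPM without and 47.0, 54.1 and 50.3 CPM with PA/PC, lower in all treated libraries (-0.20 ± 0.043, edgeR adjusted p = 6.32e-05). Cpt1b had 1, 10 and 9 counts with PA/PC against 3, 7 and 8 without, which overlap and were too few to be tested.

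The other carnitine acyltransferases differed from each other. Crat had 23.3, 23.4 and 21.0 CPM without and 23.1, 24.96 and 21.1 CPM with PA/PC. The groups overlapped, and the log2 fold change was 0.026 ± 0.060 (edgeR adjusted p = 0.698), with a 95% interval from -0.10 to 0.15. Crot fell from 44.3, 45.1 and 45.8 CPM to 33.0, 29.9 and 31.5 CPM, with all treated libraries lower (-0.52 ± 0.045, edgeR adjusted p = 4.88e-13).

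Carnitine import and synthesis genes also went in opposite directions. Slc22a5, the importer, fell from 13.7, 14.6 and 13.9 CPM to 8.01, 8.94 and 8.85 CPM, lower in every treated library (-0.71 ± 0.073, edgeR adjusted p = 4.64e-11). Aldh9a1 rose from 99.3, 102 and 101 CPM to 201, 210 and 215 CPM, far above every untreated library (1.04 ± 0.030, edgeR adjusted p = 2.58e-27), and 26.4% of all genes tested changed by at least as much.

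**Figure D2:**
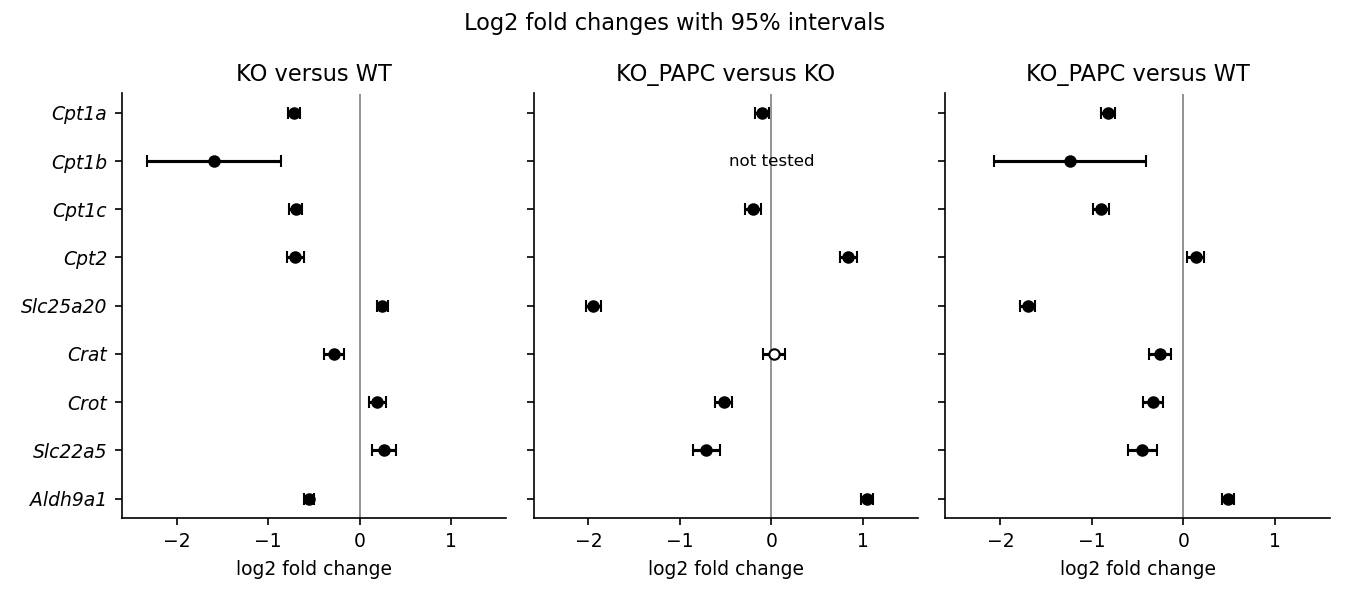
Log2 fold change of the 9 carnitine genes (horizontal axes) from edgeR for the 3 pairs of EB groups, with 95% intervals; filled points passed the adjusted p threshold and the open point (Crat) did not. Slc25a20 lay at -1.95 and Cpt2 at 0.84 in KO_PAPC versus KO, on opposite sides of the zero line.

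Set against WT EBs, the PA/PC-treated Tnfaip2-/- EBs were 1.77 times lower for Cpt1a, 1.87 times lower for Cpt1c and 3.25 times lower for Slc25a20. All 9 genes were called, 2 higher (Cpt2 and Aldh9a1) and 7 lower, beside a background of 70.6% of 16655 genes called (34.2% higher and 36.4% lower). None of the 9 overlapped between the groups, as for 72.6% of all genes. At a tested minimum fold of 1.5, 3 were called (Cpt1a, Cpt1c and Slc25a20), against 17.7% of all genes, and at a tested minimum fold of 2 only Slc25a20 was, against 8.02%. The median of the 9 was -0.45, against -0.02 over all genes. This comparison shares its libraries with the other 2, so its values are not separate evidence.

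Cpt1a, at 95.2, 98.0 and 94.8 CPM in WT and 53.8, 56.3 and 53.7 CPM in treated knockout EBs, differed by -0.82 ± 0.037 (edgeR adjusted p = 4.37e-16). Cpt1c differed by -0.90 ± 0.043 (edgeR adjusted p = 2.06e-15). No treated library came near a WT library for either gene. Slc25a20 was lower by -1.70 ± 0.041 (edgeR adjusted p = 1.60e-21), and 5.97% of all genes tested changed by at least as much. Cpt2 was the member nearest to its WT level. Its 40.9, 43.1 and 43.7 CPM lay just above the 39.3, 38.8 and 37.5 CPM of WT EBs, a difference of 0.14 ± 0.044 on the log2 scale (edgeR adjusted p = 0.00821). That call was lost without the third WT library (adjusted p = 0.0534), and its sign turned, to -0.029, when libraries were scaled to their totals.

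Aldh9a1 ended above its WT level, by 0.49 ± 0.032 (edgeR adjusted p = 8.31e-13). Crot (-0.33 ± 0.054, edgeR adjusted p = 6.94e-06), Slc22a5 (-0.45 ± 0.075, adjusted p = 9.60e-06) and Crat (-0.25 ± 0.060, adjusted p = 5.27e-04) were lower than in WT EBs. Thus Crot and Slc22a5, higher than WT in the untreated knockout, were lower than WT in the treated one. Cpt1b, with 19, 18 and 17 counts in WT and 1, 10 and 9 in treated EBs, gave -1.24 ± 0.40 (edgeR adjusted p = 0.00821). Its call was lost in DESeq2 (adjusted p = 0.0731) and without the first treated library (0.0746).

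Scaling mattered for the small differences of the treated libraries. With library totals in place of TMM, the median of all genes shifted by -0.17 in both comparisons with PA/PC-treated EBs. The split of all calls then went from 6801 higher and 7246 lower to 5317 and 8684 against untreated knockout EBs, and from 5693 and 6067 to 3616 and 8341 against WT EBs. Among the members, Crat was then called lower with PA/PC than without (-0.14, adjusted p = 0.0302), and the calls among the 9 became 2 higher and 6 lower against untreated knockout EBs and 1 higher and 7 lower against WT EBs.

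Levels of different genes were compared per kilobase of exon (CPM per kb). The length was that of all annotated exons of a gene merged over its transcripts, for example 7642 bases for Cpt1a and 5605 for Cpt1c. Transcripts in use may be shorter, and which were in use was not tested. The order of genes therefore rests on these lengths too, and the SD does not cover them. For Cpt1b the full exon length was used, although reads in the bases shared with Gm44502 were not counted. Its levels per kb are therefore understated, as are those of Slc22a5, which lack reads shared with its paralogs. In WT EBs, Aldh9a1 stood first at 43.7 ± 0.88 CPM per kb (SD, n = 3), followed by Slc25a20 at 19.6 ± 0.33, Cpt1c at 16.7 ± 0.59, Cpt2 at 16.1 ± 0.39 and Cpt1a at 12.6 ± 0.23. Crot (7.21 ± 0.52), Crat (5.08 ± 0.26), Slc22a5 (3.80 ± 0.016) and Cpt1b (0.184 ± 0.0078) came below them. Only Cpt1c and Cpt2 overlapped among neighbours in this order.

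In Tnfaip2-/- EBs, Slc25a20 at 23.3 ± 0.94 CPM per kb came closer to Aldh9a1 at 29.9 ± 0.44, and Cpt1c (10.3 ± 0.29) and Cpt2 (9.91 ± 0.25) again overlapped. Crot (8.26 ± 0.14) passed Cpt1a (7.66 ± 0.25), and Slc22a5 (4.58 ± 0.15) passed Crat (4.19 ± 0.25). With PA/PC the order changed most for Slc25a20. It fell from the second to the fifth place at 6.05 ± 0.20, where it overlapped with Crot at 5.77 ± 0.28, and lay below Cpt2 (17.8 ± 0.63), Cpt1c (9.0 ± 0.63) and Cpt1a (7.14 ± 0.19). Aldh9a1 remained first at 61.7 ± 2.1, and Crat (4.28 ± 0.36), Slc22a5 (2.80 ± 0.17) and Cpt1b (0.0776 ± 0.058) were the lowest.

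Among the 3 CPT1 genes, the balance moved little. Cpt1a made up 42.7% of their summed CPM per kb in WT EBs, 42.5% in Tnfaip2-/- EBs and 44.0% with PA/PC. Cpt1c held 56.7%, 57.2% and 55.5%, and Cpt1b under 1% in each group (0.624%, 0.333% and 0.479%). The share of Cpt1b is understated, because reads in the 81.4% of its exon bases shared with Gm44502 were not counted. These shares are ratios of group means, depend on the merged exon lengths and carry no test.

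**Figure D3:**
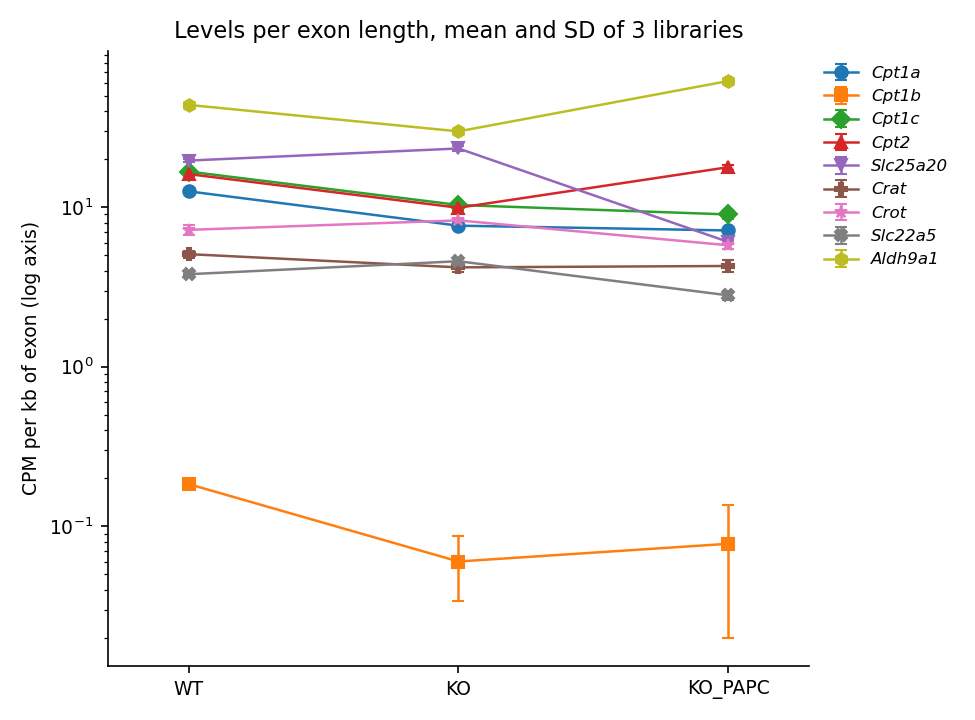
Mean level of the 9 carnitine genes in CPM per kb of exon (log axis) in WT, KO and KO_PAPC EBs, with SD of 3 libraries as bars. Slc25a20 went from 19.6 and 23.3 to 6.05 CPM per kb and crossed below Cpt2, Cpt1c and Cpt1a, all of which it had exceeded in both untreated groups.

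The genes whose log2 levels followed Cpt1a and Slc25a20 most closely over the 9 libraries were sought among 16174 genes, by the root mean square of the difference after each gene was centred. For Cpt1a these were Yars (0.0488), Mmp11 (0.0511) and Hspg2 (0.0521). Yars, a tyrosyl-tRNA synthetase, had 223 ± 4.5 CPM in WT, 144 ± 0.93 in Tnfaip2-/- and 128 ± 4.1 in PA/PC-treated EBs (SD, n = 3). For Slc25a20 they were Slc39a4 (0.0586), Cyb561 (0.0609) and Hbegf (0.0656). Slc39a4, a zinc importer, had 55.5 ± 1.7, 69.4 ± 2.1 and 17.5 ± 0.82 CPM in the same order. All genes share the 9 libraries and their 3 group means, so such likeness is a description.

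The steps around the shuttle were described with 6 lists of 49 genes, grouped by the known roles of the genes. Their counts of called genes stand beside the shares of all genes tested. These were 36.8% higher and 37.1% lower in knockout against WT EBs. They were 39.6% and 42.2% with PA/PC against without, and 34.2% and 36.4% in treated knockout against WT EBs. Counts near these shares do not set a list apart. The list of other carnitine synthesis and transport genes had 5 of 8 members with enough counts. Against WT, Tnfaip2-/- EBs had 1 of the 5 higher, Slc16a9, a carnitine exporter (0.97 ± 0.14, edgeR adjusted p = 1.00e-07), and 1 lower, Slc25a29, a mitochondrial carrier of basic amino acids (-0.95 ± 0.19, adjusted p = 4.06e-05). With PA/PC, 1 was higher and 3 lower than in untreated knockout EBs, with a median of -1.86. Slc16a9 had 3.68, 3.71 and 3.46 CPM without and 0.311, 0.158 and 0.507 CPM with PA/PC (-3.46 ± 0.23, edgeR adjusted p = 2.86e-16). Tmlhe, the first enzyme of carnitine synthesis, fell from 5.58 ± 0.70 to 1.54 ± 0.055 CPM (SD, n = 3), by -1.86 ± 0.14 on the log2 scale (edgeR adjusted p = 1.37e-14). Against WT EBs, 4 of the 5 were lower in treated knockout EBs and none higher. Bbox1, whose product makes the last step to carnitine, had 0 counts in all 9 libraries, and 3 counts in a library would be 0.0998 to 0.119 CPM. The floor covers counting error only.

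Thus Aldh9a1 and Tmlhe, which act in the same synthesis pathway, differed in direction with PA/PC, the first rising and the second falling. Slc22a21 and Slc22a4, the paralogs that share sequence with Slc22a5, were low. Slc22a21 had 4.23 ± 0.15, 3.94 ± 0.77 and 3.35 ± 0.36 CPM in WT, Tnfaip2-/- and PA/PC-treated EBs, and Slc22a4 0.183 ± 0.039, 0.405 ± 0.084 and 0.130 ± 0.022 CPM.

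Acyl-CoA synthetases supply the substrate of CPT1. Of 5 genes, Tnfaip2-/- EBs had 3 higher and 1 lower than WT, with a median of 0.34, led by Acsl1 (0.77 ± 0.038, edgeR adjusted p = 4.96e-19) and Acsl6 (-0.45 ± 0.079, adjusted p = 5.79e-06). With PA/PC, again 3 were higher and 1 lower than without, with Acsl1 now the lower one (-1.03 ± 0.044, edgeR adjusted p = 5.14e-22) and Acsl3 among the higher (0.74 ± 0.032, adjusted p = 9.13e-22). Against WT EBs, Acsl3 (0.75 ± 0.033) and Acsl4 (0.96 ± 0.042) led the 3 that were higher, and 1 was lower.

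Genes that set malonyl-CoA, the inhibitor of CPT1, include the acetyl-CoA carboxylases that make it, malonyl-CoA decarboxylase that removes it, and the AMPK catalytic subunits that restrain its synthesis. In Tnfaip2-/- EBs, 4 of 5 were higher and 1 lower than in WT EBs. Acaca, the cytosolic carboxylase, rose from 21.4 ± 0.64 to 32.0 ± 1.5 CPM (SD, n = 3, 0.58 ± 0.049 SE on the log2 scale, edgeR adjusted p = 1.67e-12). Mlycd, the decarboxylase, fell from 18.6 ± 0.99 to 10.9 ± 0.62 CPM (-0.77 ± 0.064, edgeR adjusted p = 6.78e-13). With PA/PC, 2 were higher and 2 lower than without. Mlycd came partly back, to 14.5 ± 0.79 CPM (0.41 ± 0.070, edgeR adjusted p = 2.38e-06), and Prkaa2, an AMPK catalytic subunit, was lower (-0.42 ± 0.057, adjusted p = 3.82e-08). Against WT EBs, Acaca stayed higher (0.71 ± 0.050) and Mlycd lower (-0.37 ± 0.064), 2 of the 5 genes being higher and 2 lower.

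Downstream of the shuttle, the 14 genes of matrix beta-oxidation split in both directions. In Tnfaip2-/- EBs 5 were higher and 6 lower than in WT EBs (median 0.04). With PA/PC 6 were higher and 7 lower than without (median -0.15), and against WT EBs 5 were higher and 7 lower (median -0.03). Acadl, a long-chain acyl-CoA dehydrogenase, and Eci1, an enoyl-CoA isomerase, were lower in Tnfaip2-/- than in WT EBs (-0.77 ± 0.039 and -0.72 ± 0.053). Acadvl, the very-long-chain dehydrogenase that acts first on palmitoyl-CoA, was 20.9 ± 0.59 CPM in WT, 28.4 ± 0.15 CPM in Tnfaip2-/- and 11.5 ± 0.72 CPM in treated EBs (SD, n = 3), so that it fell with PA/PC (-1.31 ± 0.060, edgeR adjusted p = 3.38e-21) while Eci1 rose (1.04 ± 0.051, adjusted p = 3.72e-20). Etfdh, which passes electrons from the dehydrogenases to ubiquinone, was lower in treated knockout than in WT EBs (-0.66 ± 0.044, edgeR adjusted p = 1.47e-12).

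Peroxisomal beta-oxidation, which feeds CROT, had 3 of 10 genes higher and 3 lower in Tnfaip2-/- than in WT EBs (median -0.01). With PA/PC, 2 were higher and 7 lower than without (median -0.54), and against WT EBs 1 was higher and 7 lower (median -0.58). Ehhadh, the peroxisomal bifunctional enzyme, went from 7.82 ± 0.64 CPM in WT to 18.7 ± 0.34 CPM in Tnfaip2-/- EBs and 3.39 ± 0.58 CPM with PA/PC (SD, n = 3). It was higher in the untreated knockout (1.25 ± 0.067, edgeR adjusted p = 8.36e-18) and lower with PA/PC (-2.46 ± 0.089, adjusted p = 2.74e-24).

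Of 7 transcriptional regulators of the shuttle genes, 5 had enough counts in each of the first 2 comparisons. In Tnfaip2-/- EBs 3 were higher and 2 lower than in WT EBs. Their median was 0.39, but it turned to -0.23 without a count filter and to -0.22 in DESeq2, which include the scarcer genes. With PA/PC 1 was higher and 3 lower than without (median -0.71), and against WT EBs 1 of 4 was higher and 2 lower (median -0.22). Ppargc1b, a coactivator of mitochondrial genes, fell in the knockout (-0.70 ± 0.13, edgeR adjusted p = 9.34e-06) and rose with PA/PC (1.37 ± 0.12, adjusted p = 3.51e-13). Rxra, the partner of PPAR receptors, did the reverse (0.54 ± 0.041 and -0.89 ± 0.047). Ppara, named here after its values were seen, was scarce, with 6, 12 and 7 counts in WT, 37, 29 and 33 in Tnfaip2-/- and 1, 3 and 1 in treated EBs. It was higher in the untreated knockout than in WT EBs (1.94 ± 0.29, edgeR adjusted p = 3.86e-07), lower with PA/PC than without (edgeR adjusted p = 8.99e-11, with the size of the fall limited by counts of 1 to 3), and not tested between treated knockout and WT EBs.

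**Figure D4:**
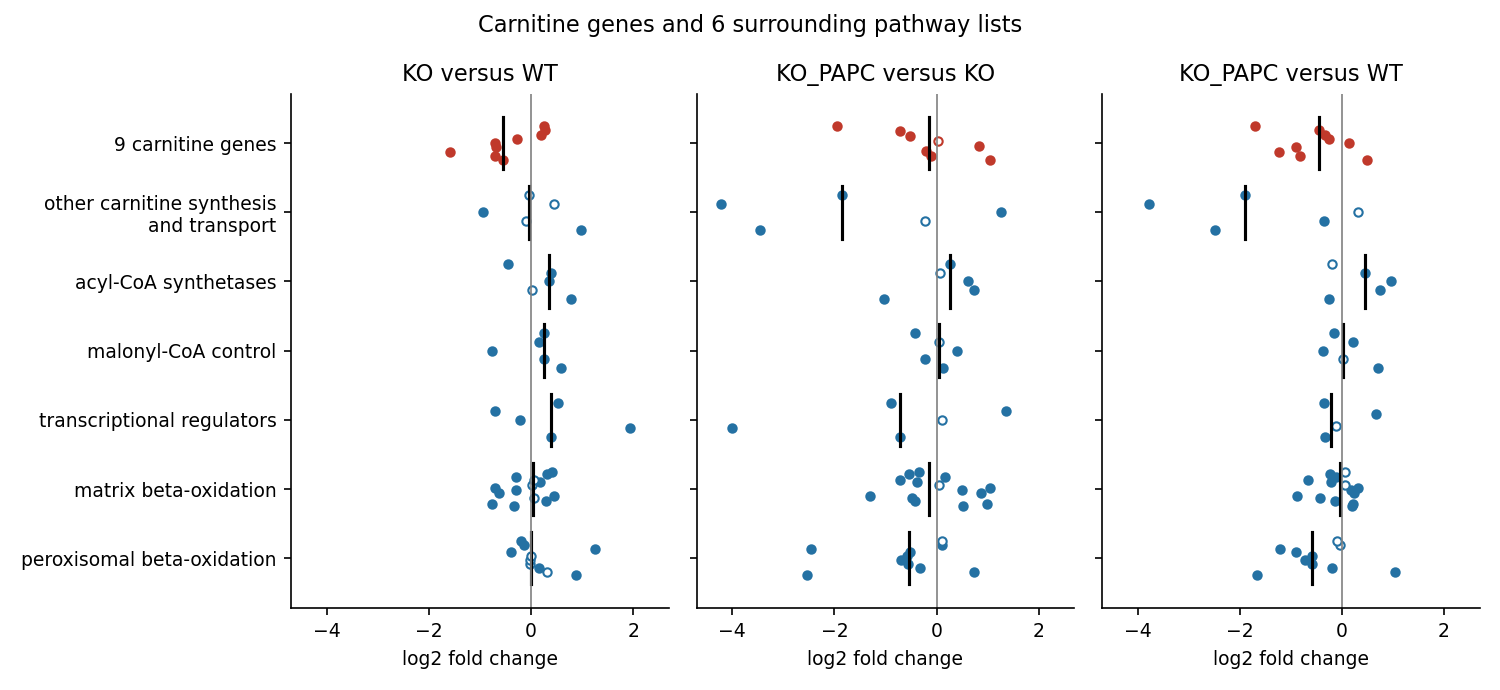
Log2 fold changes (horizontal axes) of the 9 carnitine genes (red) and of 6 surrounding lists (blue) in the 3 comparisons; each point is a tested gene, filled where called, and vertical bars are list medians. The other carnitine synthesis and transport genes had a median of -1.86 and the peroxisomal genes of -0.54 in KO_PAPC versus KO, while matrix beta-oxidation genes lay on both sides of zero.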

How the data were processed

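Total RNA of 9 EB libraries (3 per group) was sequenced from unstranded TruSeq RNA v2 libraries. The deposited table holds raw read counts per Ensembl gene, which the authors made without counting reads that map to several places or overlap several genes. The labels of all 9 libraries name bcl2fastq 2.20.0.422, STAR 2.7.2b, featureCounts 1.6.5 and GRCm38, whereas the study's methods describe another aligner for a first analysis of WT and Tnfaip2-/- EBs, so it is not certain that all libraries were handled alike. No per-sample column was left unused (0). Depth was 27362913 to 28914312 counts per library.

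From these counts, edgeR 4.0.16 (R 4.3.3) was run per pair of groups: filterByExpr, TMM, glmQLFit and glmQLFTest on 6 libraries, with Benjamini-Hochberg adjustment over all genes tested and a threshold of 0.05. A tested minimum fold of 1.5 or 2 used glmTreat. An exact permutation test of 3 against 3 libraries cannot go below p = 0.1 and was not used. DESeq2 1.42.0, other scalings and filters, a joint fit, thinned counts, left-out replicates and a replicate block were alternatives. Replicate pairs differed by more than sampling noise (chi-square per degree of freedom 1.22 to 3.45). This cannot tell biological replicates from repeat libraries. All were kept as separate samples because the study describes them as biological replicates.

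The members and lists were chosen with earlier results of these data known. Named were all 9 members, the 3 genes most like Cpt1a and Slc25a20, and in each list and comparison the 2 genes with the largest called change and a mean of at least 1 CPM. A gene that this rule selects is not reported here. Promoters were taken from RefSeq (GRCm38.p6) and gene positions and exon overlaps from a GRCm38 annotation, in which 241 of 55471 gene IDs were not found.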

Additional observations from a re-analysis of the deposited data

How the results depend on the processing

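Of 416 alternative values for the 9 carnitine genes, 367 kept the direction and the side of the threshold, 45 kept the direction but were no longer called, and 4 changed sign. The sign changes were Cpt2 in treated knockout against WT EBs with library totals (-0.029) and Crat in treated against untreated knockout EBs with library totals (-0.14), without the third untreated (-0.028) or the second treated library (-0.025; range over left-out libraries -0.028 to 0.097). Of 896 values for the named pathway genes and Tnfaip2, 811 were unchanged in this sense, 75 lost and 5 gained a call and 5 changed sign. One was Acaca with PA/PC under library totals (-0.035). The others were in knockout against WT EBs and never called. They were Acsl3 without the third knockout (-0.0018) or the third WT library (-0.0024, range -0.0024 to 0.045) and Tmlhe without the first (0.021) or the second knockout library (0.0087, range -0.15 to 0.021).

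Requiring a minimum fold of 1.5 or 2 left 3637 and 1587 genes called in knockout against WT EBs, 6491 and 3554 in treated against untreated knockout EBs and 2953 and 1335 in treated knockout against WT EBs, with 4 and 0, 4 and 1, and 3 and 1 members, which follows from the stricter null. Leaving out a library gave 12382 to 12820, 13785 to 14137 and 11208 to 11654 calls and 9 to 9, 6 to 7 and 8 to 9 members. Deviations of same-numbered libraries from their group means had correlations of -0.04 to 0.07. These cannot show whether the replicate numbers pair samples, and the main fits used no pairing. With a replicate block, 12587, 13822 and 12223 genes and 9, 7 and 9 members were called.

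List medians moved under settings that changed which genes were tested (filters, DESeq2) or how libraries were scaled. Beyond that the cause was not tested. In knockout against WT EBs, the other carnitine genes went to 0.43 without a filter and 0.44 in DESeq2 (-0.12 to 0.22 with a library left out), and the regulators turned to -0.23 and -0.22. In treated against untreated knockout EBs, library totals gave 0.10 (synthetases), -0.11 (malonyl-CoA), -0.32 (matrix), -0.70 (peroxisomal) and -0.88 (regulators), and a mean of at least 10 counts gave -1.05 for the other carnitine genes. In treated knockout against WT EBs, library totals gave 0.29 (synthetases), -2.06 (other carnitine genes), -0.14 (malonyl-CoA), -0.20 (matrix), -0.75 (peroxisomal) and -0.38 (regulators). There the other carnitine genes stood at -1.18 unfiltered, -1.12 under a minimum mean of 10 counts and -1.18 in DESeq2, and the regulators at -0.34 and -0.33 without a filter and in DESeq2.

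With 3 libraries per group and 1 knockout line, a change of the line cannot be told apart from one of the gene. Genes with few counts are limited by depth, and Cpt1b also by the uncounted reads in bases shared with Gm44502.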
